A study of Mus musculus with 8 samples.

Results

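The genes described here encode the protein subunits of the mitochondrial ribosome. They were chosen by name alone, as every gene symbol of the deposited table that starts with Mrpl or Mrps followed by a digit, which gave 76 of 23504 symbols. All 76 passed the filter on low counts. The study sequenced RNA from the outer cortex of the kidney in wild-type C57Bl6/J mice that had been fed a high fat or a control diet for 9 weeks, with 4 libraries for each diet. Mice of both groups started their diet at 6 weeks of age and were 15 weeks old. The high fat libraries carry the letters A, B, F and G and the control libraries the letters I, J, L and M. Whether the libraries stem from separate mice is not stated in the labels, so the p-values speak only of the spread from library to library, which may be technical.

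Mitochondria keep a ribosome of their own that translates the few proteins encoded by mitochondrial DNA, all of them subunits of the respiratory chain and ATP synthase. Its ribosomal RNAs come from mitochondrial DNA, whereas every one of its proteins is encoded in the nucleus, made in the cytosol and imported. Some of these proteins have a counterpart in the bacterial ribosome and others were added in the mitochondrial lineage, and the kidney cortex, rich in proximal tubules, is among the tissues with the most mitochondria. Mrpl symbols stand for the large subunit, which forms peptide bonds, and Mrps symbols for the small subunit, which reads the mRNA. By current knowledge the products of Mrps18a and Mrps30 sit in the large subunit, and that of Mrps36 belongs to the 2-oxoglutarate dehydrogenase complex.

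The stretches before the start sites of 4 members are shown as examples: Mrps6 had the largest fall, Mrpl3 and Mrpl51 fell, and Mrpl9 had the largest value above 0. Other members that fell are not shown. Each is the plus strand from 250 bases upstream up to the start site, taken from RefSeq on GRCm38.p6, and all 4 genes are transcribed from that strand. Capitals mark letters that match a searched motif: GGGCGG (GC box), CCGGAAG (core of the site of the ETS factor GABP) or GCGCATG (core of the site of NRF1), on either strand. Mrps6 lies at chr16:92058086-92058335, Mrpl3 at chr9:105053018-105053267, Mrpl51 at chr6:125191950-125192199 and Mrpl9 at chr3:94443086-94443335. The gene bounds given further below are those of GENCODE M21, which begin before the RefSeq start site in all 4 genes. For Mrpl51 they begin at 125191801, so its whole stretch lies inside the gene as bounded there.
Mrps6: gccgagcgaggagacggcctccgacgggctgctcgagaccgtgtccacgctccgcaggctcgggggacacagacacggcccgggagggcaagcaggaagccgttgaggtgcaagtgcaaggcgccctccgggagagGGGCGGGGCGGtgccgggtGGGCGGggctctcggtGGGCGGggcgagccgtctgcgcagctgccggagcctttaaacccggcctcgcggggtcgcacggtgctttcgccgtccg
Mrpl3: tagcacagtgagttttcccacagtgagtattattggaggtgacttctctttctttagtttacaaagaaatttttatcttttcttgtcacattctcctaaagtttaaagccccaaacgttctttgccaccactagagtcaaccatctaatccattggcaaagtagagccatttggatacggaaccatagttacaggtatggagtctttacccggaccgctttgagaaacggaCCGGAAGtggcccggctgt
Mrpl51: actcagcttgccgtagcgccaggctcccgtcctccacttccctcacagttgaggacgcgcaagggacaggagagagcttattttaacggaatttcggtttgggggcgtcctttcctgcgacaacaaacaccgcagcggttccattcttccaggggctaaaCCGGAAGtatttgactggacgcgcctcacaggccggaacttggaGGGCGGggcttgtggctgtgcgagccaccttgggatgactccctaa
Mrpl9: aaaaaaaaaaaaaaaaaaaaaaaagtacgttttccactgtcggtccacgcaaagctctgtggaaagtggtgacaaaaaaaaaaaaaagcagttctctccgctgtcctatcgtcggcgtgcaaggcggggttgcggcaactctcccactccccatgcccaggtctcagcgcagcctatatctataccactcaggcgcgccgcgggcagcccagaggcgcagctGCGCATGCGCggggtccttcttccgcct

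The stretch of Mrps6 held 4 GC boxes, the first pair sharing bases, and neither of the other motifs. Mrpl3 held 1 GABP core close to the start site, Mrpl51 held 1 GABP core and 1 GC box, and the NRF1 core of Mrpl9 was met on both strands because the letters around it form a palindrome. In windows from 250 bases before to 50 after the start site, available for 67 members, the GABP core was found in 24 (35.8%), against 9.9% of 27025 genes with such a window and 17.9% of the 10348 of them tested here. The NRF1 core was found in 8 members (11.9%), against 4.4% of all genes and 7.3% of tested genes. The core AAGATGG of the factor YY1 was found in 13 members (19.4%), against 7.3% and 7.8%. The GC box was found in 33 members (49.3%), against 38.2% and 65.9%. The CRE core TGACGTC and the ERR core AAGGTCA were each found in 4 members (6.0%), against 3.6% and 5.4% of all genes and 5.9% and 4.2% of tested genes. Of the members that fell but are not shown, Mrps16 held the GABP core and the GC box in its window. Mrpl40 held only the GC box, Mrps25 held no searched motif, and Mrpl15 had no window. GABP and NRF1 are known regulators of nuclear genes for mitochondrial proteins, and a match of letters is a description of the window, not a binding site.

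Total expected counts were 23503593 to 26291029 per high fat library and 26572175 to 30781585 per control library. The rRNA precursor Rn45s took 1.23% to 13.33% of them in 7 libraries and 50.35% in control J, and it was left out before scaling, after which control J kept 13993652 counts and the other libraries 21793784 to 30403685. Levels are given as CPM (counts scaled to a common library total) after scaling by TMM, a method that matches the bulk of genes between libraries. Changes are log2 of high fat over control with a standard error (SE) from edgeR's quasi-likelihood test, and genes with a Benjamini-Hochberg adjusted p under 0.05 are those called. In bulk RNA, fewer cells of a type and less RNA per cell cannot be told apart.

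On the high fat diet 7 of 76 mitochondrial ribosomal protein genes fell and 0 rose. The 7 are Mrps6, Mrps16 and Mrps25 of the small subunit and Mrpl3, Mrpl15, Mrpl40 and Mrpl51 of the large subunit, and they fell by 13.7% to 27.8%. Over all 14711 genes tested, 9.99% were called, 5.13% as lower and 4.86% as higher, and the 7 members are 9.21% of theirs. With both directions counted, the family was therefore close to the background. All of its calls were lower, however, so 9.21% stands against 5.13% called as lower and 0 against 4.86% called as higher. These differences were not tested. One member above 0, Mrpl9, had an unadjusted p under 0.05, and DESeq2 and limma-voom also called 0 members as higher.

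Most members had values below 0, called or not. The log2 change was below 0 in 66 members (86.8%), against 50.5% of all tested genes, and its median was -0.10, against -0.002. When the deposited FPKM values were compared without rescaling, the members' median was 0.048, against 0.141 over all genes. With the FPKM of each library rescaled it was -0.095. Individual members ranged from -0.47 (Mrps6) to 0.19 (Mrpl9), and the median SE of a single gene was 0.068. An unadjusted p under 0.05 was reached by 24 members (31.6%), against 27.4% of all tested genes. With both directions counted, this share too was near the background. Of these 24 members 1 was above 0.

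**Figure D1:**
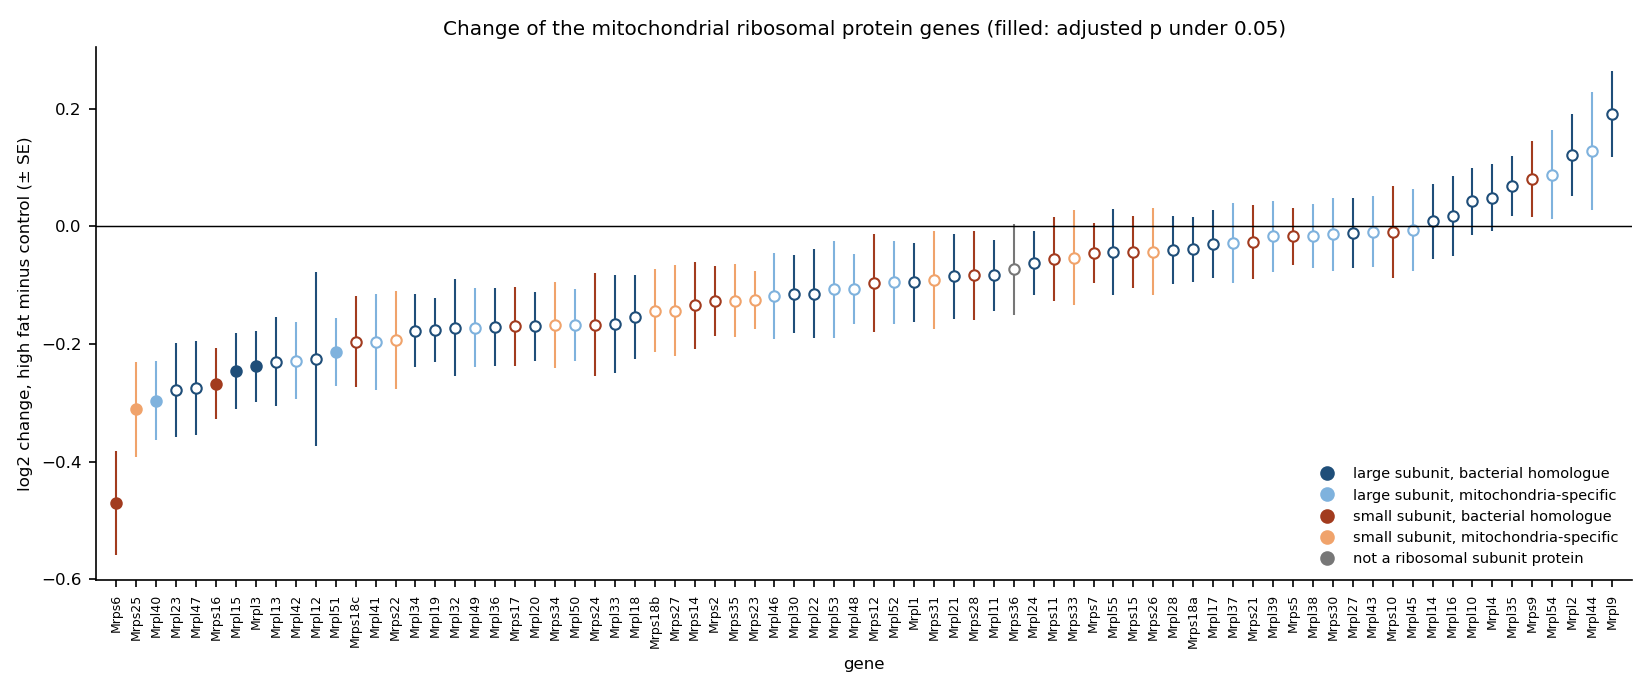
Log2 change (high fat over control) with its SE for each of the 76 mitochondrial ribosomal protein genes, ordered by change and coloured by class; filled points mark the 7 genes called by edgeR. The changes lie between -0.47 and 0.19 and 66 of 76 are below 0 with counts scaled by TMM. With FPKM as deposited the members' median is 0.048, against 0.141 over all genes.

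Values below 0 prevailed in every class of protein. In the large subunit, 24 of 31 members counted here with a bacterial counterpart were below 0 (median -0.095). Of those counted as mitochondria-specific, 16 of 18 were below 0 (median -0.10), with 2 called in each class. The place of Mrps18a and Mrpl55 among those with a bacterial counterpart is disputable, as is that of Mrps18b among the mitochondria-specific ones of the small subunit. The counts and medians were not redone without these genes. In the small subunit, 15 of 16 members with a bacterial counterpart were below 0 (median -0.09, 2 called) and 10 of 10 mitochondria-specific ones (median -0.13, 1 called). By subunit, 40 of 49 large-subunit genes and 25 of 26 small-subunit genes were below 0, with medians of -0.095 and -0.13. No difference between classes was tested.

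Mrps6 encodes a small-subunit protein with a bacterial counterpart, at chr16:92058270-92112227 on the plus strand (GENCODE M21, GRCm38). Its level was 22.12, 17.95, 16.80 and 18.20 CPM in high fat A, B, F and G, and 24.79, 28.71, 24.84 and 25.98 CPM in control I, J, L and M. Every high fat library was below every control library, and the highest high fat library, A, was closest to the controls. The change was -0.47 ± 0.089 (SE; 18.8 ± 2.32 against 26.1 ± 1.84 CPM, SD, n = 4 each; edgeR, Benjamini-Hochberg adjusted p = 0.0105), the largest fall of the family. It was also the only member called in all 8 fits that each left out 1 library, with an edgeR adjusted p of at most 0.0301.

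The start of Mrps6 is shared with another gene. RefSeq places the start site of Slc5a3, the sodium-coupled myo-inositol transporter that carries an osmolyte into kidney cells, 14 bases upstream on the same strand, and their promoter windows have 286 of 300 bases in common. The exons of the genes share 159 bases, 10.4% of those of Mrps6, and the annotated protein-coding gene Gm49711 on the same strand shares 305 bases (19.9%). Slc5a3 stood at 280.4, 251.1, 265.4 and 264.0 CPM in high fat A, B, F and G and at 574.2, 428.4, 286.1 and 374.4 CPM in control I, J, L and M. Its groups also did not overlap, but the controls were spread over a wide range, with library I highest and L lowest. Mrps6 was nearly level between these libraries, at 24.79 and 24.84 CPM. The change of Slc5a3 was -0.65 ± 0.16 (SE; edgeR, adjusted p = 0.0314), and it was called in 3 of the 8 fits that left out a library, those without control I, L or M, with an adjusted p of up to 0.0745 in the others. Reads from the shared exon were divided between the genes by the authors' counting, so part of the change of either gene could come from the other, which was not tested.

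Mrps16 encodes a small-subunit protein with a bacterial counterpart, and mutations of the human gene cause a combined respiratory chain deficiency (chr14:20389304-20393634, minus strand). Its level was 24.78, 24.94, 24.73 and 25.79 CPM in high fat A, B, F and G and 30.03, 31.20, 31.96 and 27.63 CPM in control I, J, L and M. The high fat libraries were nearly level and all below the controls, of which M was lowest. The change was -0.27 ± 0.06 (SE; edgeR, adjusted p = 0.0206). It was called in the fits without control M, high fat B or high fat G, and the adjusted p reached 0.0603 in the others.

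Mrps25 is a mitochondria-specific protein of the small subunit (chr6:92169525-92184033, minus strand). Its level was 45.91, 41.63, 37.96 and 40.86 CPM in high fat A, B, F and G and 50.52, 51.59, 58.32 and 46.00 CPM in control I, J, L and M. The groups did not overlap, but high fat A nearly reached control M. The change was -0.31 ± 0.081 (SE; edgeR, adjusted p = 0.0362), with calls in the fits without high fat A or control M only and an adjusted p of up to 0.098 otherwise. Of its 6576 exon bases, 4590 (69.8%) overlap exons of Nr2c2, a nuclear receptor gene on the opposite strand. Nr2c2 had a log2 change of 0.12 ± 0.051 (SE; edgeR, adjusted p = 0.164), and the sources used here do not give whether counting used the strand, so the level of Mrps25 is uncertain.

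Mrpl3 encodes the counterpart of a bacterial protein that reaches towards the peptidyl transferase centre (chr9:105053239-105079888, plus strand). Its level was 30.65, 30.45, 30.19 and 29.12 CPM in high fat A, B, F and G and 37.66, 32.60, 36.90 and 34.57 CPM in control I, J, L and M. All high fat libraries lay within a narrow band below the lowest control, J. The change was -0.24 ± 0.06 (SE; edgeR, adjusted p = 0.0312). It was called in the fits without control J or control M, and the adjusted p reached 0.0876 without control I.

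Mrpl15 also has a bacterial counterpart (chr1:4773206-4785739, minus strand). Its level was 33.54, 36.88, 33.64 and 31.93 CPM in high fat A, B, F and G and 39.34, 39.53, 43.96 and 38.33 CPM in control I, J, L and M. High fat B was the nearest to the controls and control L stood highest. The change was -0.25 ± 0.065 (SE; edgeR, adjusted p = 0.0385), called in the fits without high fat B or control M and with an adjusted p of up to 0.0962, without high fat G.

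Mrpl40 and Mrpl51 are mitochondria-specific proteins of the large subunit. Mrpl40 (chr16:18872018-18876862, minus strand) stood at 21.94, 22.71, 20.42 and 21.85 CPM in high fat A, B, F and G and at 27.88, 25.29, 28.54 and 24.85 CPM in control I, J, L and M. Every high fat library was below every control, and controls I and L were higher than J and M. The change was -0.30 ± 0.067 (SE; edgeR, adjusted p = 0.0201), lost in the fits without high fat F, control I or control L (adjusted p up to 0.0642).

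Mrpl51 (chr6:125191801-125196269, plus strand) stood at 70.60, 70.59, 65.85 and 67.30 CPM in high fat A, B, F and G and at 82.00, 84.34, 78.92 and 73.00 CPM in control I, J, L and M. Control M was the control nearest to high fat A and B, and the remaining controls stood well above them. The change was -0.21 ± 0.058 (SE; edgeR, adjusted p = 0.0421), and it was called in 1 of the 8 fits that left out a library, that without control M (adjusted p up to 0.114 in the others).

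**Figure D2:**
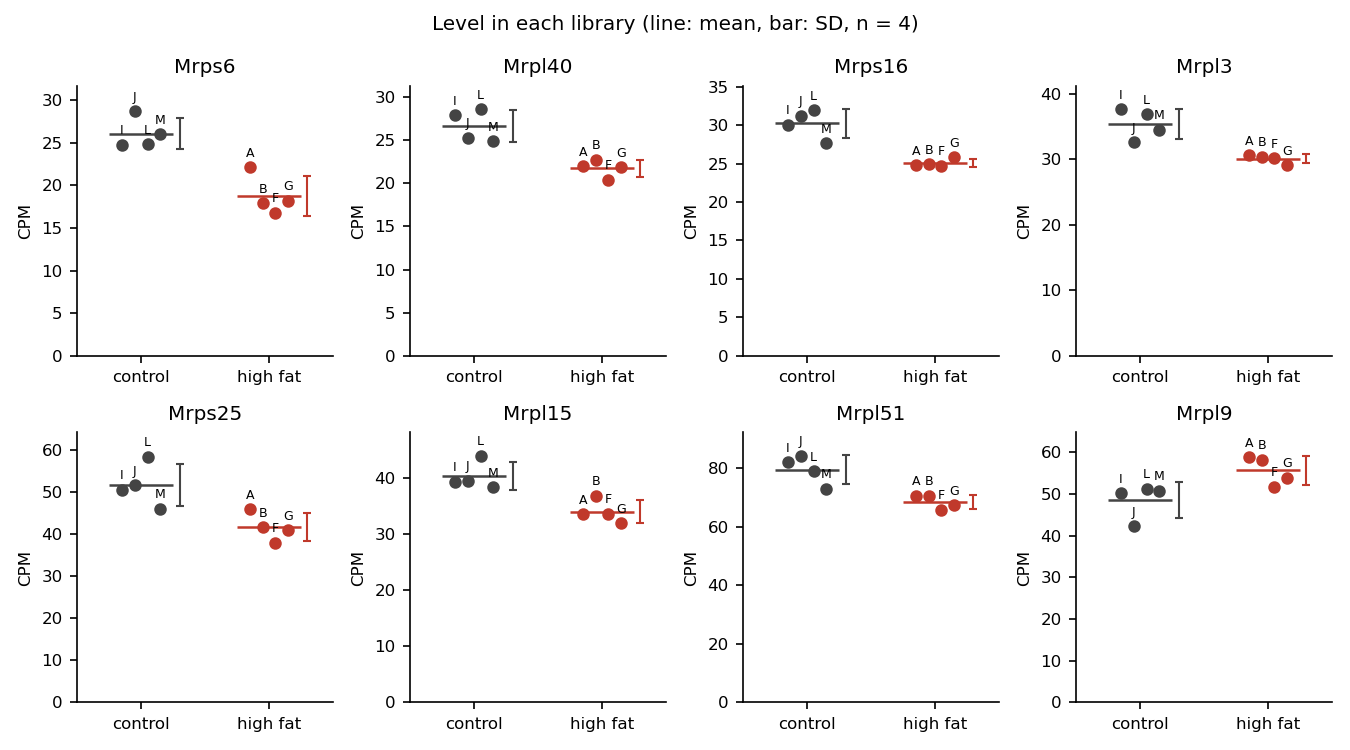
Level in CPM (axes start at 0) of the 7 called genes and Mrpl9 in each of the 8 libraries (points, with the library's letter; lines are means and bars SD of 4 libraries). For the 7 called genes every high fat point lies below every control point, and for Mrpl9 the order is the opposite.

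Across the family 11 members (14.5%) had every high fat library below every control library, against 9.2% of all tested genes, and 2 members (2.63%), Mrpl9 and Mrpl35, had every high fat library above, against 8.31%. Members just past the threshold were Mrpl42, Mrpl23 and Mrpl47, large-subunit proteins. Mrpl42 had a log2 change of -0.23 ± 0.065 (SE; edgeR, adjusted p = 0.0501), Mrpl23 of -0.28 ± 0.08 (adjusted p = 0.0512) and Mrpl47 of -0.28 ± 0.08 (adjusted p = 0.0525). Mrpl42 was the least separated of them, with high fat B at 78.33 CPM above control M at 76.69 CPM. The exons of Mrpl47 overlap those of Actl6a and Ndufb5 on the opposite strand, by 10.2% and 13.9% of its bases.

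Mrpl9, with a bacterial counterpart in the large subunit, had the largest value above 0. Its level was 58.86, 58.28, 51.80 and 53.90 CPM in high fat A, B, F and G and 50.17, 42.25, 51.33 and 50.80 CPM in control I, J, L and M. The groups did not overlap, yet high fat F nearly met control L, and control J stood far below the rest. The log2 change was 0.19 ± 0.073 (SE; edgeR, adjusted p = 0.117). Mrpl44, which resembles a ribonuclease and whose human counterpart is mutated in a cardiomyopathy, had 0.13 ± 0.10 (adjusted p = 0.444), and Mrpl2, a core protein of the peptidyl transferase centre, had 0.12 ± 0.07 (adjusted p = 0.289). Both had overlapping groups, and control J was their lowest library.

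Of the members chosen for their role, those other than Mrps6 did not pass the test. Mrpl12, the stalk protein that recruits translation factors and has also been linked to mitochondrial transcription, had a log2 change of -0.23 ± 0.148 (SE; edgeR, adjusted p = 0.354). Control J stood at 139.9 CPM and the other controls at 83.89 to 89.71 CPM, so this value rests on 1 library. Mrpl11, of the same GTPase-associated region, had -0.083 ± 0.06 (adjusted p = 0.41), and Mrps12, of the decoding centre, had -0.096 ± 0.083 (adjusted p = 0.493).

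The 3 genes of the Mrps18 family, related to a bacterial small-subunit protein (Mrps18b is counted here as mitochondria-specific), had values of -0.039 (Mrps18a), -0.14 (Mrps18b) and -0.20 (Mrps18c), with edgeR adjusted p of 0.694, 0.212 and 0.129. Mrps22 and Mrps34, whose human counterparts are mutated in respiratory chain deficiencies, had -0.19 ± 0.083 and -0.17 ± 0.073 (adjusted p = 0.159 and 0.165). The level of Mrps34 is uncertain, since 63.4% of its exon bases overlap Mapk8ip3 on the opposite strand. Mrps30 had -0.013 (adjusted p = 0.921) and Mrps36 -0.073 (adjusted p = 0.585). The members closest to 0 were Mrpl45 at -0.006, Mrpl14 at 0.009 and Mrps10 at -0.009, each with an SE of 0.064 to 0.078.

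Levels between members were ranked only per length, as CPM per kilobase of effective transcript length, a length worked out from the deposited counts and FPKM. In the control libraries they spanned a 34.7-fold range. Before division by length, the members' control means ran from 13.96 to 99.71 CPM. The highest were Mrps21 at 198 ± 10.4 CPM per kilobase (SD, n = 4), Mrpl42 at 139 ± 10.3, Mrpl12 at 111 ± 30.0, Mrpl20 at 106 ± 6.47 and Mrpl30 at 81.3 ± 5.09. The lowest were Mrpl19 at 5.71 ± 0.088, Mrpl17 at 6.85 ± 0.42, Mrps25 at 8.56 ± 0.84, Mrps27 at 9.59 ± 0.83 and Mrpl35 at 9.95 ± 0.29. The effective lengths of Mrpl19, Mrpl17 and Mrps25 are 4962, 6676 and 6028 bases, and that of Mrps21 is 354. The order thus depends on the lengths used, and the level of Mrps25 is uncertain, as said above. Mrpl12 and Mrpl20 did not differ beyond their spread, nor did Mrps27 and Mrpl35, whereas Mrps21, Mrpl42 and Mrpl30 stood apart from each other.

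The members' median in the controls was 36.5 CPM per kilobase, against 7.82 over all tested genes. Cytosolic ribosomal proteins stood at a median of 312 and nuclear-encoded respiratory chain subunits at 270 CPM per kilobase. Factors of mitochondrial translation had a median of 14.8, and genes for assembly, rRNA modification and mitochondrial RNA one of 9.21. Both are below the members' median, though single genes of these lists, such as Tufm, stood above it. Classes within the family, as grouped here, overlapped widely. Medians were 39.8 and 32.2 CPM per kilobase for large-subunit members with and without a bacterial counterpart, and 32.2 and 36.1 for small-subunit members.

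**Figure D3:**
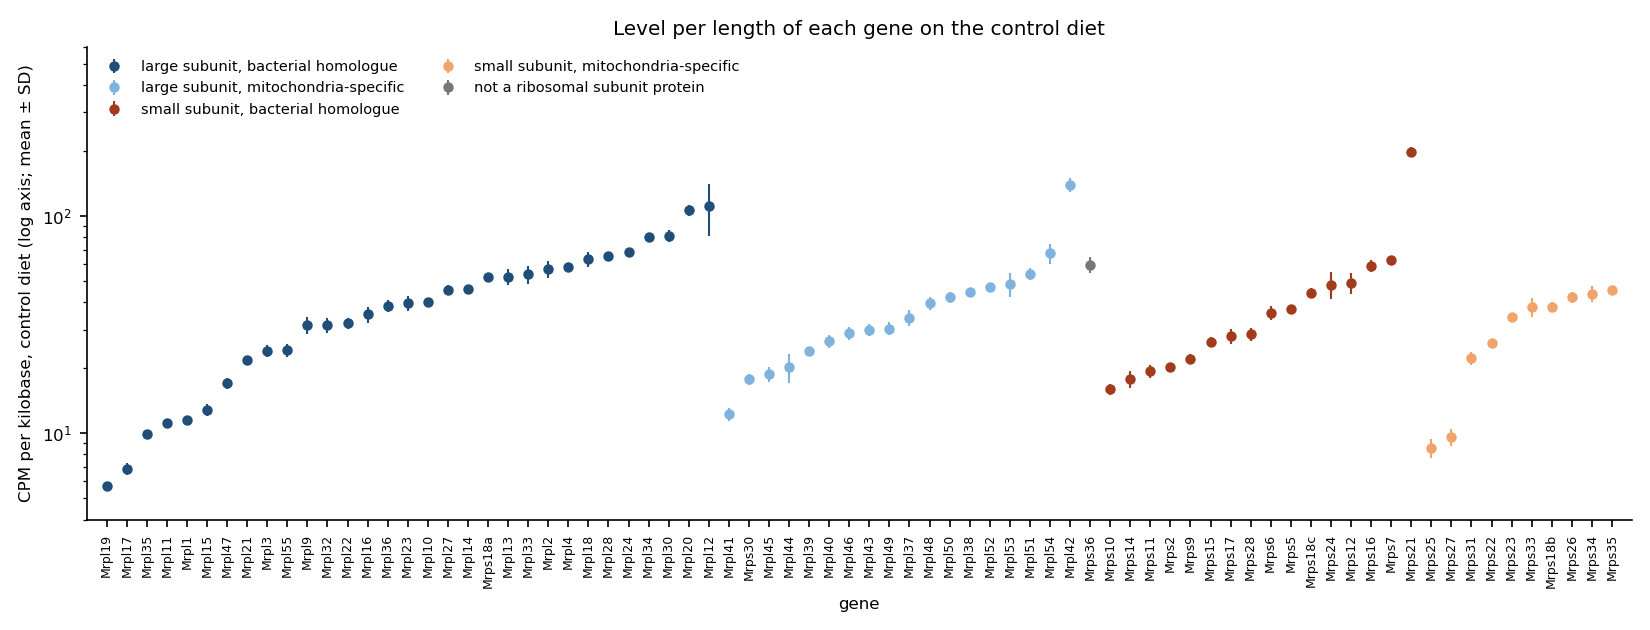
Level of each of the 76 genes in the control libraries (CPM per kilobase of effective length, log axis; points are means and bars SD of 4 libraries), ordered within each class of protein. Levels run from 5.71 (Mrpl19) to 198 (Mrps21), the classes overlap, and Mrpl12 has the widest bar.

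The libraries of a diet differed in how the family stood as a whole. Each member's level was taken relative to its mean over all libraries on the log2 scale, and the median over the 76 members was 0.008, -0.001, -0.11 and -0.095 in high fat A, B, F and G and 0.058, 0.072, 0.086 and -0.026 in control I, J, L and M. The groups overlapped, with control M below high fat A and B. Cytosolic ribosomal proteins followed the same order of diets, at -0.043, 0.009, -0.20 and -0.14 in the high fat libraries and 0.11, 0.18, 0.10 and -0.009 in the controls. Respiratory chain subunits stood at 0.053, 0.055, -0.079 and -0.033 in the high fat libraries and 0.02, 0.024, 0.036 and -0.083 in the controls. In these 3 lists high fat F and G were below high fat A and B, and control M was the lowest control.

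**Figure D4:**
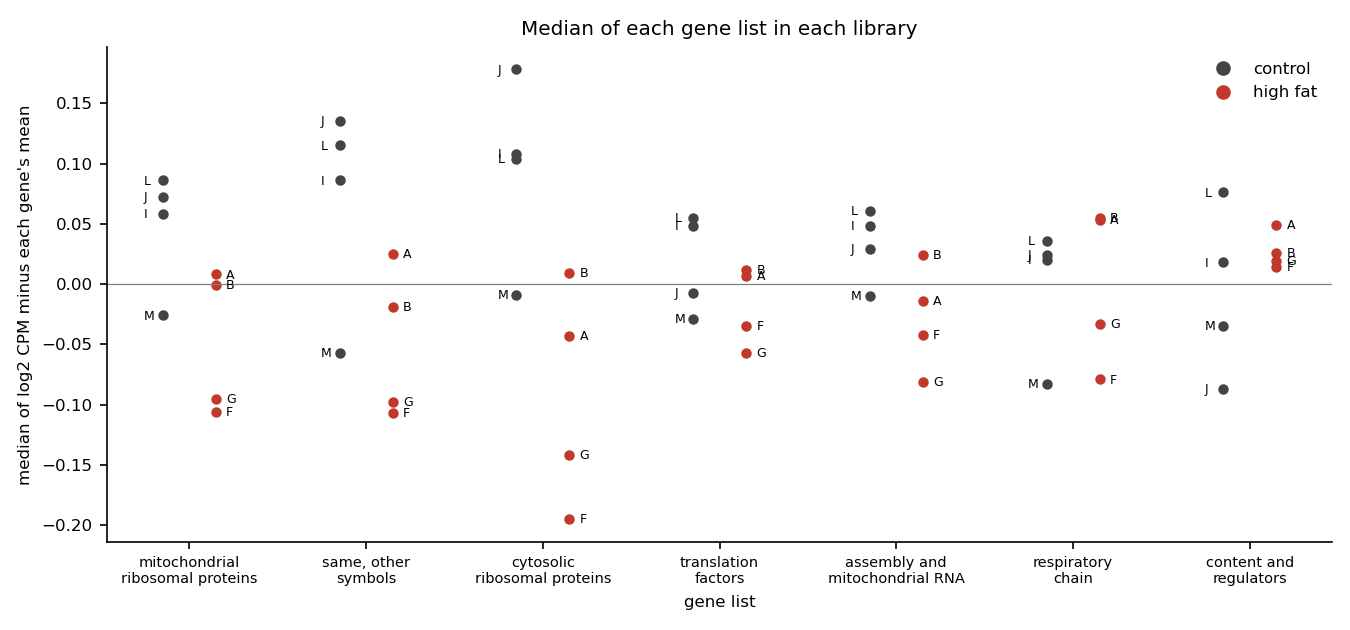
Median over each of 7 gene lists of log2 CPM minus the gene's mean over the 8 libraries, 1 point for each library with its letter. Mitochondrial ribosomal proteins lie between -0.11 and 0.086 and overlap between the diets, and high fat F and G are the lowest high fat libraries.

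The number of called members changed with the libraries used, and so did the number over all genes, of which 14779 to 14841 were tested. It was 3 (934 genes) without high fat A, 5 (1171) without B, 1 (739) without F and 3 (908) without G. It was 1 (795 genes) without control I, 3 (801) without J, 1 (994) without L and 11 (1528) without M. The single gene left without high fat F, control I or control L was Mrps6, and the 3 left without control J, the library with the high Rn45s share, were Mrps6, Mrpl40 and Mrpl3. The members' median was -0.13 to -0.074 over these fits. With control J and high fat G both left out, edgeR called 0 members and 417 of 14740 genes. In this fit 13 members (17.1%, against 20.5% of all tested genes) had an unadjusted p under 0.05, and 58 of 76 were below 0 (median -0.076).

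Short transcripts as a whole stood lower on the high fat diet, and the members are short. Their median effective length was 993.5 bases, against 2670 over all 13644 tested genes with a length, and Spearman's rho of change with length was 0.16 across all genes and 0.14 across members, which share the same libraries. Of genes under 1000 bases 64.2% were below 0 (median -0.071), and of the 39 members in that range 36 were below 0 (median -0.11). From 1000 to 2000 bases 57.7% of genes (median -0.034) and 20 of 26 members (median -0.042) were below 0. Above 2000 bases 47.1% of genes (median 0.012) and 10 of 11 members (median -0.13) were below 0. Under 1000 bases the members' median was thus below that of all genes, and from 1000 to 2000 bases it was close. Above 2000 bases it was also below, but that range rests on few members. With the trend over length removed from each library, the members' median was -0.05, 48 of 76 were below 0 and 5 stayed called, Mrps16 and Mrpl51 being lost with edgeR adjusted p of 0.0716 and 0.0545. The part of RNA quality or library preparation in the trend was not tested.

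**Figure D5:**
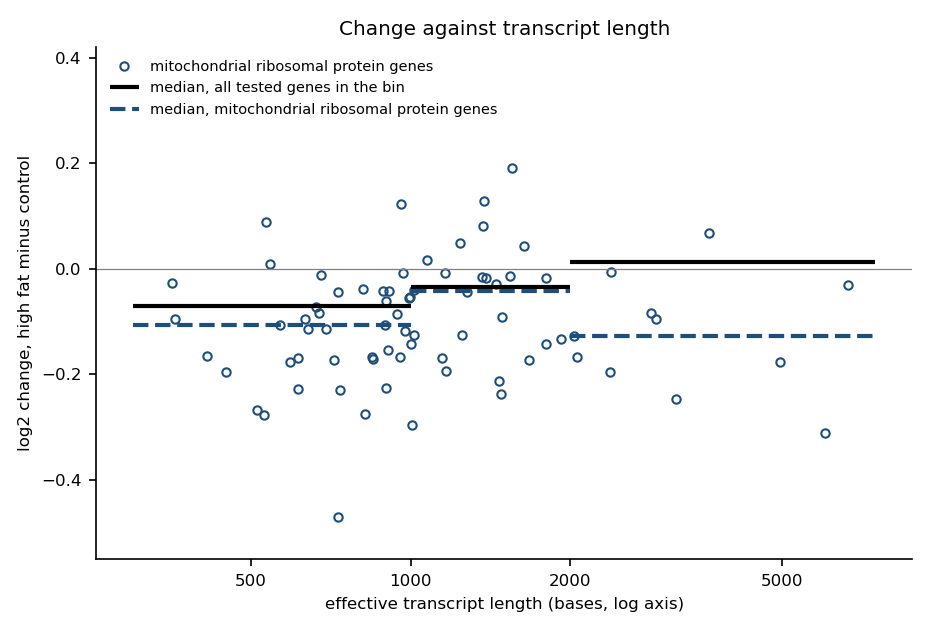
Log2 change (high fat over control) against effective transcript length (bases, log axis) for the 76 members (circles), with the median of all tested genes (solid lines) and of the members (dashed lines) in 3 length ranges. The all-gene median moves from -0.071 under 1000 bases to 0.012 above 2000 bases, and the members' medians are -0.11, -0.042 and -0.13.

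Among other genes of mitochondrial translation and content, 0% to 6.25% of a list were called, against 9.99% of all tested genes (5.13% as lower). The lists are small, and no share was tested against the background. Of 7 mitochondrial ribosomal proteins with symbols of another kind, 0 were called by edgeR, DESeq2 or limma-voom, 2 had an unadjusted p under 0.05 in edgeR's test and 6 were below 0 (median -0.13). They included Dap3, a GTP-binding protein of the small subunit, at -0.14 (adjusted p = 0.209), and Ict1, a peptidyl-tRNA hydrolase of the large subunit, at -0.19 (adjusted p = 0.056). Of 16 translation factors 1 fell, the release factor gene Mtrf1l (9.75 ± 0.34 against 12.7 ± 1.49 CPM, log2 change -0.37 ± 0.094, edgeR adjusted p = 0.0328), and 9 were below 0 (median -0.023). The count was 0 without high fat A, B, F or G or control I or L, 1 without control J and 2 without control M. The elongation factor genes Tufm and Gfm1 had 0.058 and 0.046.

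Of 36 genes for assembly, rRNA modification and mitochondrial RNA, 2 fell and 24 were below 0 (median -0.06). They were Trmt10c, a subunit of mitochondrial RNase P (log2 change -0.31 ± 0.081, edgeR adjusted p = 0.0366), and Rnmtl1, now Mrm3, which methylates the large mitochondrial rRNA (-0.36 ± 0.095, adjusted p = 0.0379). By edgeR 0 of the 36 were called without high fat A, F or G or control I or J, where 6 to 8 had an unadjusted p under 0.05, 1 was called without control L or M and 2 without high fat B. Genes for mitochondrial content and its regulators, among them Ppargc1a (0.079), Tfam (0.013), Nrf1 (-0.10) and Gabpa (0.078), had 0 of 8 called, 0 with an unadjusted p under 0.05 and 0 called by DESeq2 or limma-voom.

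The respiratory chain, whose mitochondrially encoded subunits the ribosome makes, had values on both sides of 0. Of 76 nuclear-encoded subunits tested, 2 rose and 0 fell, 37 were below 0 and the median was 0.01. The risers were Ndufa1 (0.21 ± 0.051, edgeR adjusted p = 0.0252) and Ndufv3 (0.24 ± 0.06, adjusted p = 0.031), both of complex I, and 0 to 2 were called when 1 library was left out (0 without high fat A or B or control I or J), whereas 8 were called as higher with the length trend removed. Of 82 cytosolic ribosomal protein genes 14 fell (17.1%), 0 rose and 80 were below 0 (median -0.18), with 8 called when the length trend was removed. With 1 library left out, the count was 9 without high fat A, 20 without B, 1 without F and 2 without G, and 2 without control I, 4 without J, 4 without L and 31 without M. No difference between lists was tested.

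Many members share a start region or exons with a neighbour. In GENCODE M21, 22 members had a gene on the opposite strand starting within 1000 bases upstream or overlapping by up to 200 bases. Of the 21 neighbours tested, 14 were below 0 (median -0.072), against 50.5% of all tested genes. The members beside them were below 0 in 17 pairs, and both genes in 12. A link within pairs was not tested. Among these 21, 1 neighbour was called, against 9.99% of all tested genes. It was Wdfy1 beside Mrpl44 (0.33 ± 0.072, edgeR adjusted p = 0.0184). Hira beside Mrpl40, with starts 175 bases apart, had 0.15 (adjusted p = 0.27), and Ncapd2 beside Mrpl51, 100 bases apart, had 0.29 ± 0.088 (adjusted p = 0.062), both values being above 0. Exons of 32 members overlap those of another gene, and those of 23 overlap a protein-coding one. Besides Slc5a3 and Wdfy1, the called gene among the overlapping ones was Nme3, which shares 37.0% of the exon bases of Mrps34 on the same strand. It had a log2 change of -0.28 ± 0.077 (SE; edgeR, adjusted p = 0.0464). Mapk8ip3 on the opposite strand shares 63.4% of the exon bases of Mrps34 and had -0.038 (adjusted p = 0.784). The share called among overlapping genes was not worked out, and that over all tested genes was 9.99%.

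The authors' deposited table by gene symbol listed 1133 genes, 6 of them members, with a fold of high fat over control of 0.722 for Mrps6, 0.818 for Mrpl40, 0.832 for Mrps16, 0.846 for Mrpl15, 0.852 for Mrpl3 and 0.865 for Mrpl51. The authors' deposited table by Ensembl gene listed 1175 genes, 8 of them members, adding Mrps25 at 0.766 and Mrpl47 at 0.794. Beside these counts stand the 14711 genes tested here, 76 of them members. All of these folds are below 1, but the share below 1 over all listed genes was not worked out. The folds come from the same 8 libraries and are no independent evidence.

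Markers of kidney cell types and of neighbouring tissue were read beside these results. Summed proximal tubule markers (6 of 6 present) ran from 41800 to 47000 CPM in high fat and from 35600 to 42900 CPM in control libraries. Thick ascending limb markers ran from 2630 to 3350 and 3280 to 3910 CPM, and podocyte markers from 240 to 265 and 260 to 277 CPM. Intercalated cell markers were lower in every high fat library (136 to 159 against 165 to 192 CPM). Markers of white fat were under 1 CPM in all libraries, those of brown fat at 7.89 to 10.3 CPM in high fat libraries, within the range of the controls, with Ucp1 and Cidea below the filter, and those of the adrenal cortex at 4.1 to 6.5 and 5.62 to 7.12 CPM with Cyp11b1 at 0. All lists but that of intercalated cells overlapped between the diets. The part of cell makeup in the members' changes was not tested.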

How the data were processed

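Per the labels' protocols, libraries were made after ribosomal RNA removal. CASAVA 1.8.2, RSEM 1.2.9 and the mm10 build are named in the submitters' processing notes. Expected counts, deposited by the authors for each gene symbol, share ambiguous reads between genes by likelihood, and FPKM were deposited for the same symbols. Further deposited tables of the authors' comparison give a fold as a ratio and a score (a posterior probability).

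Expected counts were rounded to whole numbers, Rn45s was left out, and edgeR 4.0.16 in R 4.3.3 (TMM, filterByExpr, quasi-likelihood F test, diet as the only term) was fitted on all genes, with Benjamini-Hochberg adjustment over the 14711 tested. The SE is the log2 change over the square root of F. Depth per library is given with the results, and counting error adds to the spread of low genes. Alternatives used DESeq2 1.42.0, limma 3.58.1, other filters, FPKM with a pseudocount of 0.1 or 1, a length correction and left-out libraries. The test was tested on simulated data. All 76 members matched GENCODE M21 by symbol, and 67 matched a RefSeq promoter. Malsu1, Slirp and Tefm were not analysed here.

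Named members are those called, those of highest and lowest level, of largest and smallest change, and 12 chosen for their role. Mrpl23 and Mrpl47, next to the threshold, and the neighbouring genes were named after their values were seen, and uncalled genes of other lists for their known role. Members, lists and motifs were chosen with earlier results of these data known.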

Additional observations from a re-analysis of the deposited data

Results flagged for a closer look

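In 62 groups of 4 libraries, those of 31 named members, the highest or lowest library was compared with the rest by Dixon's test, which chance alone passes at a rate of 0.05, and 3 groups passed. Mrpl12 stood at 139.9 CPM in control J and at 83.89 to 89.71 CPM in the other controls. Mrpl20 stood at 60.8 CPM in high fat A and at 56.65 to 56.93 CPM in the other high fat libraries. Mrpl9 stood at 42.25 CPM in control J and at 50.17 to 51.33 CPM in the other controls. Control J is the library with 50.35% of its counts in Rn45s, and the part of this in the values of Mrpl12 and Mrpl9 was not tested.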

How the results depend on the processing

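The count of 7 called members (1469 genes) became 0 (91 genes) with log2(FPKM + 0.1) and 0 (98 genes) with log2(FPKM + 1) as deposited. There the members' median turned to 0.048 and 0.042, against 0.141 and 0.107 over all genes. The member count became 0 (417 genes) without control J and high fat G. It was 14 (2547 genes) at an adjusted p under 0.1 and 0 (330 genes) under 0.01. With the length trend removed and control J left out, a setting chosen after seeing the data, it was 3 (892 genes, median -0.041). Leaving out 1 library at a time gave 1 to 11 members, 739 to 1528 genes and medians of -0.129 to -0.074. Under the other settings (Rn45s or structural RNA, DESeq2, limma-voom, filters, a robust fit, the length trend alone, and FPKM rescaled, chosen after seeing the data) 5 to 10 members were called. The 7 called members kept their sign in every setting run. No paired analysis was possible because library letters differ between the diets. The smallest change called among members was -0.21, beyond the family's median of -0.10.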
